A study of Mus musculus with 6 samples.

Results

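The heat shock chaperones described here are 10 genes: the heat-inducible HSP70 pair Hspa1a and Hspa1b, the constitutive HSP70 Hspa8, the J-domain proteins Dnajb1 and Dnaja1, the HSP110 protein Hsph1, the cytosolic HSP90 pair Hsp90aa1 and Hsp90ab1, and the mitochondrial chaperonin Hspd1 with its co-chaperonin Hspe1. They were chosen by name, as 10 of the 24011 genes of the deposited expression table, and all 10 were measured in all 6 libraries. Total RNA was sequenced from CD4 T cells of C57BL/6 mice, either wild type (WT) or YAP cKO. In YAP cKO mice the YAP flox/flox allele is recombined by Cre under the CD4 promoter, so the deletion acts in CD4 and CD8 T cells alike and from thymic development onward. Naive CD4 T cells (CD4+ CD62L+ CD25-) and natural regulatory T cells (nTreg, CD4+ with high CD25) were sorted from lymph nodes and spleens, and each genotype gave 1 naive, 1 fresh nTreg and 1 stimulated nTreg library. Stimulated nTregs were cultured on plates coated with anti-CD3, with soluble anti-CD28 (2 µg/ml each) and 100 U/ml of IL-2, for 24 h by one label and 48 h by another. Fresh cells were frozen straight after the sort, so stimulation and time in culture cannot be told apart. The labels state neither the number, age nor sex of the mice behind a library.

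HSP70 proteins bind unfolded stretches of client proteins in a cycle driven by ATP, which J-domain proteins start and exchange factors such as HSP110 end by releasing ADP. HSP90 takes clients such as kinases and steroid receptors from HSP70 with the help of co-chaperones, and the HSP60 ring with its HSP10 lid, encoded by Hspd1 and Hspe1, folds proteins imported into mitochondria. Under heat or proteotoxic stress the transcription factor HSF1 binds heat shock elements, repeats of the unit GAA and its complement TTC, and raises Hspa1a and Hspa1b from low resting levels. T cells also raise several chaperones when they grow and divide after receptor stimulation. Tissue dissociation and cell sorting are known to induce Hspa1a, Hspa1b and Dnajb1 together with immediate early genes.

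Promoter sequences are shown where they hold matches to the element through which HSF1 is known to act. RefSeq promoter windows (250 bases before to 50 after a start site, GRCm38.p6) were at hand for 7 of the 10 genes, in 12 windows. Hspa1a and Hspa1b lie side by side on the minus strand of chromosome 17, at chr17:34972157-34972406 and chr17:34959239-34959488 for the stretch before the start site. Those 250 bases differ at 3 positions between the copies, which makes them 98.8% identical. Capitals mark a match to a 2-unit heat shock element, spelled TTCNNGAA or GAANNTTC and searched on both strands.
Hspa1a: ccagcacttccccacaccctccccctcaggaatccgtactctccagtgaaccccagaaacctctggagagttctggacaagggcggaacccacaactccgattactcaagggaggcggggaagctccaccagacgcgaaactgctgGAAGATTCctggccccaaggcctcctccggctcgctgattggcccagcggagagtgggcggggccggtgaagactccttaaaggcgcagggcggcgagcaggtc
Hspa1b: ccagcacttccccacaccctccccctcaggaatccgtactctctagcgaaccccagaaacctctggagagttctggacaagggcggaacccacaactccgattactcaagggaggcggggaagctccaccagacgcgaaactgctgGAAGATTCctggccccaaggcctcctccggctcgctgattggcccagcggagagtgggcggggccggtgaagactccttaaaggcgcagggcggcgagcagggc
Each copy holds the same match, GAAGATTC, 104 bases before its start site. Hspd1 and Hspe1 are divergent neighbours on chromosome 1 and share 1 stretch with overlapping matches, shown on the Hspe1 strand (chr1:55088053-55088082). Hsph1 (minus strand) has a match before its start site (chr5:149636351-149636380) and a longer one after it (chr5:149636287-149636309), and Dnaja1 has 1 match (chr4:40722333-40722362).
Hspe1 and Hspd1: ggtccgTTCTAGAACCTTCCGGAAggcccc
Hsph1 before the start: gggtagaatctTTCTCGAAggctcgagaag
Hsph1 after the start: tgctgcagaTTCTGGAAAGTTCt
Dnaja1: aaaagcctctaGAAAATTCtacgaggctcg
The shared Hspd1 and Hspe1 stretch and the second Hsph1 stretch also match the 3-unit element, which is TTCNNGAA followed by NNTTC, or GAANNTTC followed by NNGAA, so the 2-unit element is a part of it. The 3-unit element was found in 0.603% of the 32851 RefSeq windows of 300 bases and the 2-unit element in 15.1%. No match of either kind was found in the windows of Dnajb1. These are matches of letters, not evidence of binding.

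On GRCm38 the remaining genes are Dnajb1 on chromosome 8 (83608175 to 83612653), Dnaja1 on chromosome 4 (40722468 to 40734965), Hsph1 on chromosome 5 (149616843 to 149636498) and Hspa8 on chromosome 9 (40801276 to 40805202). Hsp90aa1 lies on chromosome 12 (110691036 to 110696395) and Hsp90ab1 on chromosome 17 (45567778 to 45573261). Hspd1 (55077833 to 55088243) and Hspe1 (55088148 to 55091317) overlap at their 5′ ends on opposite strands, and whether the authors counted by strand is not given in the sources used here. The Hspa1a transcript shares 60.3% of its 50-base stretches with other genes, mainly Hspa1b, and the Hspa1b transcript shares 62.3% with Hspa1a, so the split of fragments between the copies is uncertain and their sum is given beside each. Annotated copies and pseudogenes share 73.2% of such stretches with Hspa8, 58.5% with Hsp90aa1, 44.8% with Hspd1, 36.1% with Hspe1 and 30.6% with Dnaja1. Hsp90ab1 (4.49%), Dnajb1 (0.407%) and Hsph1 (0%) are nearly free of them. How shared fragments were assigned is not given in the sources used here.

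Levels are in FPKM, which divides the fragments of a transcript by its length and by the depth of the library. The deleted gene, Yap1, was listed at 0 FPKM in the 4 naive and fresh libraries and was 0.169 in the stimulated WT and 0.235 in the stimulated cKO library, so it gives no check of the genotype labels. From the steps between low values, 1 fragment on a transcript of 1 kb was worth 0.109 to 0.142 FPKM, and between 10210 and 10893 genes reached 1 FPKM in a library. FPKM summed to 837179 to 968967 in the 4 naive and fresh libraries and to 534274 (WT) and 595524 (cKO) in stimulated nTregs, with 36.2% to 36.6% of it in short RNAs in the former and 16.0% and 17.8% in the latter. Because of this gap, scaling to an equal sum is given both with the short RNAs and without them. Markers matched the sort: the summed FPKM of 7 Treg markers was 84.2 and 86.8 in naive and 1077 to 1255 in nTreg libraries. Of the markers of other cells, the B cell sum was 40.6 and 48.6 in fresh nTregs against at most 11.3 elsewhere, with 4 of 7 at 1 FPKM in at least 2 libraries. The NK cell sum ran from 13.3 to 67.5, with 5 of 6 markers at 1 FPKM in at least 2 libraries. Its highest value, in cKO stimulated nTregs, was 63.7 FPKM of Nkg7, and no erythroid or platelet marker reached 1 FPKM in 2 libraries. The part of these cells in the chaperone values was not tested.

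Hspa8 was the most abundant of the 10 in every library and Hspa1a the least. The 10 together summed to 3115 and 2904 FPKM in WT and cKO naive cells, 2694 and 2624.5 in fresh and 3010 and 3376 in stimulated nTregs. Hspa8 held 49.2% to 52.6% of that sum and the HSP90 pair 30.5% to 33.3%, so the total hardly shows the large movements of the inducible genes. Per-length levels of Hsp90ab1 were above those of Hsp90aa1 in all 6 libraries.

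**Figure D1:**
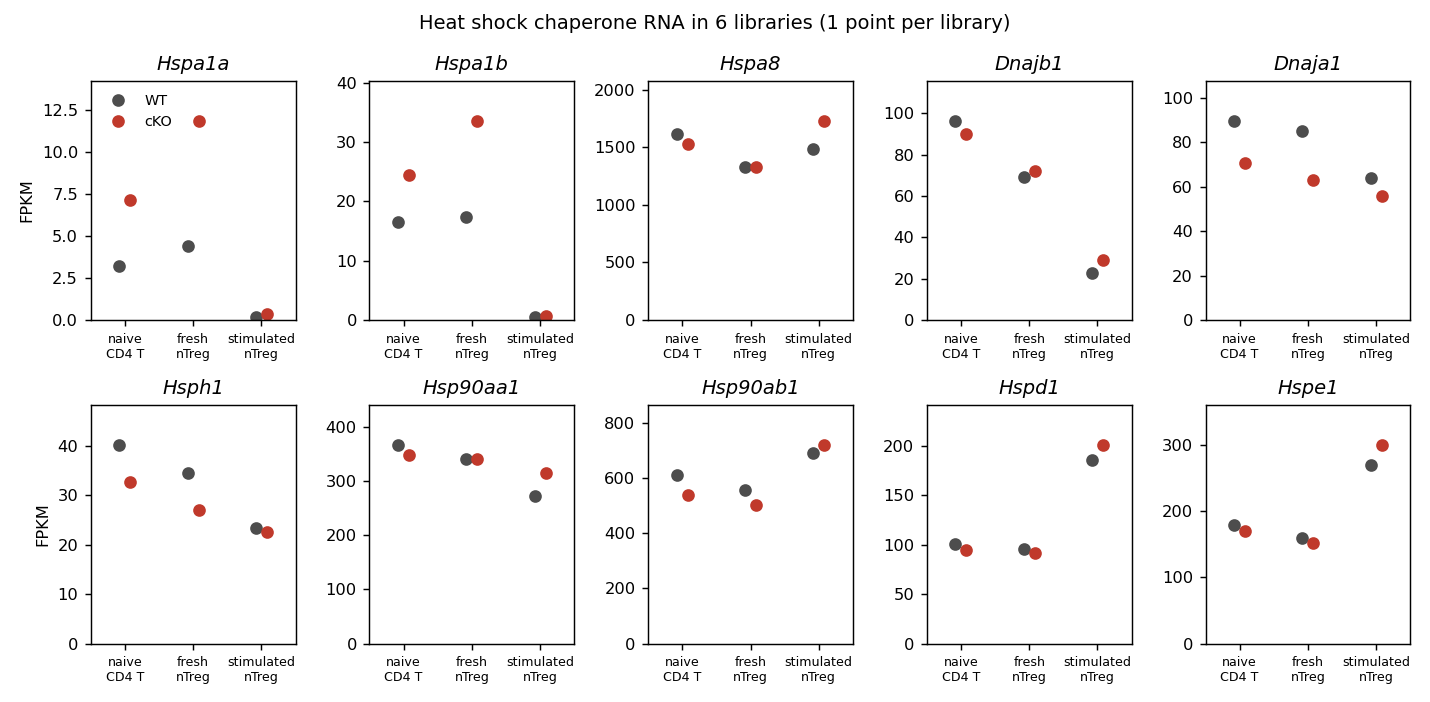
FPKM (y axis, linear from 0, scaled per gene) of the 10 heat shock chaperone genes in WT (grey) and cKO (red) libraries of the 3 populations (x axis), 1 point per library. Hspa1a and Hspa1b are under 1 FPKM in the stimulated nTregs, where Hspd1 and Hspe1 have their highest points.

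The first question was how the chaperones differ between nTregs before and after stimulation. Of the 10, 3 were higher and 5 lower in stimulated nTregs (adjusted p under 0.05 in limma's additive model of population and genotype, Benjamini-Hochberg over 11224 genes). Over all genes tested 22.5% were higher and 27.3% lower. The median difference of the 10 was -0.25 and that of all genes -0.05, in log2(FPKM + 1). The direction depends on scale for the small differences: with each library scaled to the same FPKM sum the all-gene median moved to 0.47, 59.1% of genes were higher and 8.99% lower, and the 10 split into 6 higher and 3 lower. With short RNAs left out of the equal sum, the all-gene median was 0.12, 32.5% of genes were higher and 18.4% lower, and the 10 split into 4 and 3. Hspa1a, Hspa1b and Dnajb1 were lower and Hspd1 and Hspe1 higher in all alternatives run, including that scaling and the omission of any 1 library. The model has 2 residual degrees of freedom. Its errors come from how far the WT to cKO difference varied over populations, not from mice. Leaving out a library leaves fewer degrees of freedom and 1 library in a population. A call lost that way can come from the smaller fit and need not rest on that library. In bulk RNA, fewer cells expressing a gene and less RNA per cell cannot be told apart.

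Levels are given below with WT before cKO. How many of all genes have stimulated values above or below all others was not counted, so such separation is only described. Hspa1b, the more abundant of the inducible HSP70 copies, was 16.5 and 24.5 FPKM in WT and cKO naive cells, 17.3 and 33.6 in fresh and 0.457 and 0.627 in stimulated nTregs. Hspa1a was 3.25 and 7.17 FPKM in naive cells, 4.39 and 11.9 in fresh and 0.204 and 0.354 in stimulated nTregs. Every stimulated value of these genes lay far below every fresh and naive value. The fresh level was 37.9-fold (WT) and 53.5-fold (cKO) the stimulated level for Hspa1b, and 21.5-fold and 33.5-fold for Hspa1a. In the model Hspa1b fell by 4.03 (SE 0.18, adjusted p 8.21e-05) and Hspa1a by 2.71 (SE 0.26, adjusted p 0.000653) on the log2(FPKM + 1) scale, which understates low genes. The summed copies went from 21.7 and 45.4 FPKM in fresh to 0.661 and 0.981 in stimulated nTregs and fell by 4.16 (SE 0.19, adjusted p 7.58e-05), so the fall does not rest on how fragments were split between them. The stimulated levels stand on about 4.02 fragments in WT (95% Poisson interval 1.10 to 10.3) and 9.05 in cKO (4.15 to 17.2) for Hspa1a, and 9.05 (4.15 to 17.2) and 16.1 (9.21 to 26.1) for Hspa1b. These intervals cover counting error only.

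Hspa8, the constitutive HSP70 that also uncoats clathrin vesicles, was 1612 and 1529 FPKM in naive cells, 1331 and 1333 in fresh and 1482 and 1730 in stimulated nTregs, WT first. The stimulated minus fresh difference of 0.27 (SE 0.12) did not pass the test (adjusted p 0.111), although both stimulated values lay above both fresh ones. It passed at an equal FPKM sum (0.84, adjusted p 0.000308, or 0.45 and 0.00719 without short RNAs). It also passed with libraries scaled to an equal median of expressed genes (0.36, adjusted p 0.0380). Without the WT stimulated library the difference was 0.40. The per-length ratio of Hspa8 to the summed inducible copies went from 29.3 to 81.7 in naive and fresh libraries to 2244 (WT) and 1763 (cKO) in stimulated nTregs.

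Dnajb1 is the J-domain partner induced with HSP70 under heat. It was 96.4 and 90.2 FPKM in naive cells, 69.4 and 71.9 in fresh and 22.9 and 28.9 in stimulated nTregs. Dnajb1 fell by 1.42 from fresh to stimulated (SE 0.11, adjusted p 0.000371), with the fresh FPKM at 3.03-fold (WT) and 2.49-fold (cKO) the stimulated. Dnaja1, a J-domain protein that works with constitutive HSP70, was 89.7 and 70.7 FPKM in naive cells, 85.0 and 63.1 in fresh and 63.9 and 55.7 in stimulated nTregs. Its WT stimulated value lay above its cKO fresh value, so those groups overlapped. Dnaja1 fell by 0.29 (SE 0.08, adjusted p 0.0311), but was 0.28 higher at an equal FPKM sum (adjusted p 0.0210). With short RNAs left out of that sum it kept its sign and did not pass (-0.10, adjusted p 0.320). Nor did it pass with libraries scaled to an equal median of expressed genes (-0.20, adjusted p 0.0766). The same held with no filter on low values (adjusted p 0.0516) and with no intensity trend (0.0667). The call was also lost on leaving out any 1 library other than cKO stimulated. Without a naive library the difference itself was unchanged (-0.29). It was -0.21 and -0.37 without the WT and cKO fresh libraries, and -0.20 without WT stimulated. Most Dnaja1 FPKM came from 1 of its 3 transcripts, which held 86.3 of the 89.7 FPKM in WT naive cells. The Dnajb1 to Dnaja1 ratio went from 0.817 to 1.28 in naive and fresh libraries to 0.359 and 0.518 in stimulated nTregs.

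Hsph1, the HSP110 exchange factor, was 40.2 and 32.6 FPKM in naive cells, 34.6 and 26.9 in fresh and 23.3 and 22.6 in stimulated nTregs. Both stimulated values were lower than all others. Hsph1 fell by 0.40 (SE 0.10, adjusted p 0.0205), but the difference was 0.16 in the other direction at an equal FPKM sum (adjusted p 0.173), and -0.21 with short RNAs left out of it (adjusted p 0.0965). The call was also lost without the WT fresh (adjusted p 0.191), cKO fresh (0.0611) or WT stimulated library (0.0563).

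Of the cytosolic HSP90 genes Hsp90ab1 passed the test and Hsp90aa1 did not, and at an equal FPKM sum that includes short RNAs both were called higher. Hsp90ab1, the constitutive form, was 611 and 539 FPKM in naive cells, 556 and 502 in fresh and 689 and 721 in stimulated nTregs, where both values exceeded all others. It rose by 0.42 (SE 0.10, adjusted p 0.0154), a call lost without the WT fresh (adjusted p 0.122) or cKO fresh library (0.192). Hsp90aa1, the inducible form, was 367 and 347 FPKM in naive cells, 340 and 339 in fresh and 273 and 315 in stimulated nTregs. Its difference of -0.21 (SE 0.10) did not pass (adjusted p 0.114), and at an equal FPKM sum it was 0.36 (adjusted p 0.00643), or -0.02 with short RNAs left out of that sum (adjusted p 0.825), while without the cKO stimulated library it was -0.34 (adjusted p 0.00837). Within a library no scaling enters the ratio of the pair: Hsp90aa1 stood at 0.600 to 0.676 of Hsp90ab1 in naive and fresh libraries, and at 0.396 (WT) and 0.437 (cKO) in stimulated nTregs.

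The mitochondrial pair moved the opposite way to the inducible HSP70 genes. Hspd1, the HSP60 chaperonin, was 101 and 94.6 FPKM in naive cells, 95.9 and 91.6 in fresh and 186 and 201 in stimulated nTregs. Hspe1, its HSP10 lid, was 178 and 169 FPKM in naive cells, 160 and 152 in fresh and 269.6 and 299.97 in stimulated nTregs. Both stimulated values lay above all others for each gene. Hspd1 rose by 1.04 (SE 0.08, adjusted p 0.000392), with the stimulated FPKM at 1.94-fold (WT) and 2.20-fold (cKO) the fresh. Hspe1 rose by 0.87 (SE 0.09, adjusted p 0.000823), at 1.69-fold and 1.98-fold. The 2 genes share the divergent promoter shown above, and their ratio (Hspe1 to Hspd1) stayed between 1.45 and 1.79 in the 6 libraries, lowest in the stimulated ones.

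**Figure D2:**
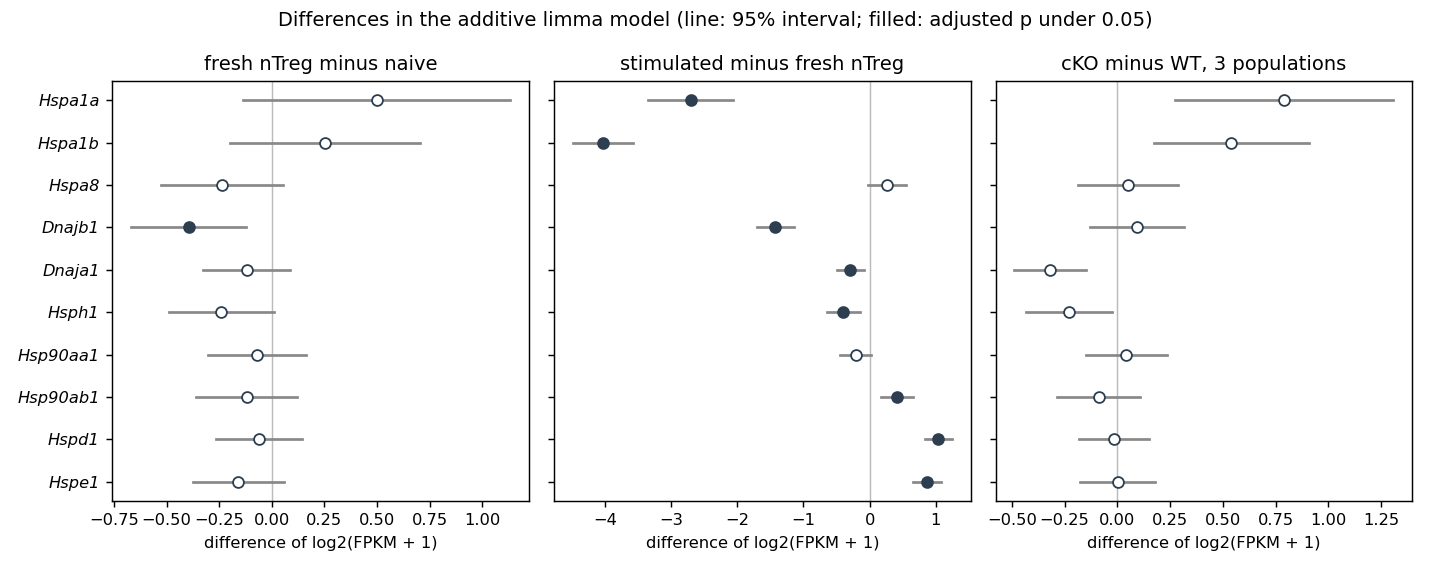
Differences of log2(FPKM + 1) (x axis, own scale in each panel) for the 10 genes in 3 comparisons of the additive limma model, with 95% intervals as lines and calls (adjusted p under 0.05) as filled points. Under stimulation Hspa1b (-4.03), Hspa1a (-2.71) and Dnajb1 (-1.42) lie to the left and Hspd1 (1.04) and Hspe1 (0.87) to the right, while Hsph1 and Dnaja1 fell here but change sign at an equal FPKM sum, though not when short RNAs are left out of that sum.

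Fresh nTregs were also set against naive cells. Only Dnajb1 of the 10 passed that test, falling by 0.40 (SE 0.11, adjusted p 0.0418), so 1 of 10 was lower and 0 of 10 higher, against 14.7% lower and 16.5% higher over all genes tested (5.86% and 24.3% at an equal FPKM sum, where the all-gene median was 0.15). That call was lost without the WT naive (adjusted p 0.273), WT fresh (0.168) or cKO fresh library (0.244), and at an equal FPKM sum, where 0 of 10 passed. Hspa1a and Hspa1b had higher means in fresh nTregs, by 0.50 (SE 0.26, adjusted p 0.193) and 0.25 (adjusted p 0.338), and did not pass. The Hspa1b difference turned to -0.03 without the cKO fresh library. Leaving out the WT or the cKO stimulated library changed the calls but not the size of the fresh minus naive differences (0.50 for Hspa1a). Such a fit estimates the spread from fewer libraries, so the calls it gains are not counted here. Calls lost on leaving out a library can likewise come from the smaller fit. Against naive cells, stimulated nTregs had 3 of the 10 higher and 6 lower, where all genes tested gave 29.8% and 33.2%. At an equal FPKM sum these were 6 and 3 of 10, against 67.3% and 9.4% of genes (all-gene median 0.66). With short RNAs left out they were 4 and 4 of 10, against 48.6% and 17.7% (median 0.31). This comparison shares its stimulated libraries with the one above. The changes were -3.78 for Hspa1b (adjusted p 3.14e-05), -2.21 for Hspa1a (0.000717), -1.82 for Dnajb1 (6.35e-05), 0.98 for Hspd1 (0.000203) and 0.71 for Hspe1 (0.000934). Hsph1 (-0.64) and Dnaja1 (-0.41) were also lower, with the sign turning at an equal FPKM sum to 0.11 and 0.35. With short RNAs left out of the sum neither sign turned, and Hsph1 was still called lower (-0.26, adjusted p 0.0449) while Dnaja1 did not pass (-0.02, adjusted p 0.817). Hsp90ab1 (0.30, adjusted p 0.0387) and Hsp90aa1 (-0.28, adjusted p 0.0419) passed narrowly: Hsp90ab1 lost its call on leaving out any 1 library other than WT stimulated (adjusted p 0.0542 to 0.285), and Hsp90aa1 any other than cKO stimulated (0.0765 to 0.315). At an equal FPKM sum Hsp90aa1 was called higher instead (0.49, adjusted p 0.00114), and with short RNAs left out it was 0.11 (adjusted p 0.274).

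The second question was whether YAP deletion in T cells goes with a change of these genes. Across the 3 populations 0 of 10 passed the limma test of cKO against WT, where 0.258% of all genes were higher and 0.116% lower. At an unadjusted p under 0.05 there were 4 of 10, against 12% of all genes. They were Hspa1a and Hspa1b, which share much of their sequence, in the higher direction, and Dnaja1 and Hsph1 in the lower. Hspa1a was higher in cKO in 3 of 3 populations by a mean of 0.79 (SE 0.21, adjusted p 0.261), and Hspa1b likewise by 0.54 (SE 0.15, adjusted p 0.277). Their sum was higher by 0.65 (SE 0.15, adjusted p 0.211). Dnaja1 was lower in 3 of 3 populations by 0.32 on average (difference -0.32, SE 0.07, adjusted p 0.189), as was Hsph1 (-0.23, SE 0.08, adjusted p 0.377). How many of all genes keep 1 sign in 3 of 3 populations was not counted. In stimulated nTregs the differences of Hspa1a (0.17), Hspa1b (0.16) and Hsph1 (-0.04) were small. Dnajb1, the partner induced with the HSP70 copies, differed by 0.09 (SE 0.09, adjusted p 0.719). Dnajb1 and the other 5 genes had adjusted p-values from 0.695 to 0.996.

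With 1 library per genotype and population, differences within a population carry no test. In fresh nTregs Hspa1a was 2.71-fold higher in cKO by FPKM (11.9 against 4.39), a log2 difference of 1.26 and the 99.6th percentile of 10889 genes. It was the only one of the 10 at least 2-fold higher on the FPKM + 1 scale, against 0.634% of genes (0.395% that far lower). No gene of the 10 passed that mark in naive or stimulated cells, where 0.661% and 1.21% of genes were that far higher and 0.536% and 0.693% that far lower. In naive cells Hspa1a was 2.21-fold higher (7.17 against 3.25 FPKM), 0.94 in log2 and the 99.2nd percentile of 10440 genes. Hspa1b was 1.94-fold higher in fresh nTregs (99.2nd percentile) and 1.49-fold in naive cells (97.4th percentile). The summed copies were 2.09-fold higher in fresh nTregs (45.4 against 21.7 FPKM) and 1.60-fold in naive cells (31.7 against 19.7). In fresh nTregs the Hspa1a difference stands on about 113 fragments in WT (95% Poisson interval 92.8 to 135) against 289 in cKO (256 to 324). In naive cells it stands on 67.0 (51.9 to 85.0) against 175 (149.7 to 203). These intervals did not overlap, but they cover counting error only and hold no spread between libraries or mice. The split of fragments between the copies is also uncertain. In stimulated nTregs the FPKM ratios were 1.74 for Hspa1a, 1.37 for Hspa1b and 1.49 for their sum, from values under 1 FPKM. On the FPKM + 1 scale, which flattens such values, the log2 differences were 0.17 and 0.16 for the single copies (68.7th and 67.4th percentiles). The counting intervals of the fragments overlapped, so even by counting error alone no genotype difference was resolved there at this depth. Dnaja1 was lower by 0.34 in naive cells (difference -0.34, 5.23rd percentile) and by 0.42 in fresh nTregs (-0.42, 3.32nd percentile), against -0.19 in stimulated nTregs. Hsph1 differed by -0.29 (6.53rd percentile), -0.35 (4.94th) and -0.04 in the same order.

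Leaving out a stimulated library leaves the genotype term to naive cells and fresh nTregs. Hspa1a then was 1.10 higher in cKO and Hspa1b 0.73 higher, and Dnaja1 differed by -0.38. This leaves out the population where the Hspa1a difference was smallest (0.17, against 0.94 in naive cells and 1.26 in fresh nTregs). Without either fresh nTreg library, in contrast, the Hspa1a difference was 0.56. Such fits leave 1 library in a population, so only the sizes are given.

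**Figure D3:**
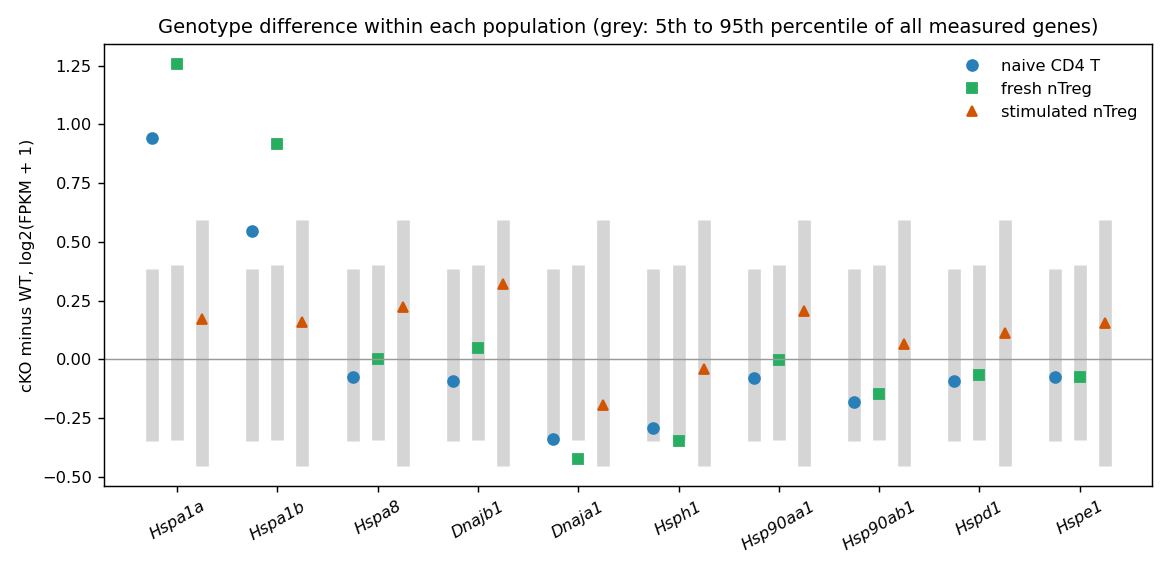
Difference of cKO and WT in log2(FPKM + 1) (y axis) for each of the 10 genes in naive cells (circles), fresh nTregs (squares) and stimulated nTregs (triangles), 1 library per genotype, with grey bars from the 5th to the 95th percentile of all genes at 1 FPKM or more in that population. Hspa1a and Hspa1b lie above the bars in naive cells and fresh nTregs and inside them in stimulated nTregs, and Dnaja1 and, narrowly, Hsph1 lie below their bars in fresh nTregs.

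Other measures that differed between the genotypes stand beside these values. Of the 11 marker lists, the summed FPKM was higher in cKO in all 3 populations for the CD4 T, CD8 T and activated and cycling T cell lists and lower in all 3 for B cells. The activated and cycling sum was 63.8 in WT and 79.8 in cKO naive cells, 156 and 172 in fresh and 422 and 528 in stimulated nTregs. Of its 6 genes 5 were higher in cKO (median 0.34) and 1 was called, Top2a, the topoisomerase of dividing cells. Top2a was 4.87 and 7.57 FPKM in naive cells, 10.8 and 19.0 in fresh and 57.3 and 104.6 in stimulated nTregs, higher by 0.72 on average (SE 0.09, adjusted p 0.0433). That call was lost without the WT fresh (0.192) or cKO fresh library (0.208), with no filter (0.345) and with no intensity trend (0.102). Mki67, a marker of cycling cells, was also higher in 3 of 3 populations and did not pass (0.47, adjusted p 0.114). Of the immediate early and sorting stress genes, a list of 16 that includes Fos and Dusp1, 11 of the 14 measured were higher in cKO in naive cells (median 0.15), 10 of 16 in fresh nTregs (median 0.10) and 10 of 15 in stimulated nTregs (median 0.16). Their summed FPKM was 2982 in WT and 3291.5 in cKO naive cells, 3894 and 3962 in fresh and 385 and 431 in stimulated nTregs. Xist, made by the inactive X chromosome of females, had WT levels of 12.5, 30.0 and 21.1 FPKM in naive, fresh and stimulated cells and cKO levels of 8.76, 3.21 and 3.43, so it was lower in cKO in 3 of 3 populations. The part of any of these in the Hspa1a and Hspa1b values was not tested.

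The stimulation difference was itself compared between genotypes, as values without a test. Hspa1a fell by 2.16 (log2 difference -2.16) in WT and by 3.25 (-3.25) in cKO, so its response in cKO was lower by 1.09 (-1.09). Hspa1b gave -3.65 and -4.41, a difference of -0.76. The other 8 genes lay on the other side of 0, between 0.18 (Hspd1) and 0.31 (Hsph1). These values are on the deposited scale. The FPKM sum was 595524 in cKO against 534274 in WT stimulated nTregs, and 843887 against 837179 in fresh nTregs. The all-gene median of cKO minus WT was 0.04 in stimulated and -0.0005 in fresh nTregs. The part of library scale in the values of these 8 genes was not tested. Hspa1a was the only one of the 10 at least 2-fold apart, against 0.955% of genes that far lower and 0.868% that far higher, and with a pseudocount of 0.1 it was not. Both genotypes were under 1 FPKM after stimulation, and the fresh level was the higher one in cKO.

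Genes with the most similar pattern were found by the root mean square difference of centred log2(FPKM + 1) over the 6 libraries, among 11214 genes. For Hspa1a they were Mx1 (0.255), Nfkbia (0.333) and Nfkbid (0.413). Mx1, an interferon-induced GTPase, was 3.86 and 8.04 FPKM in naive cells, 7.73 and 10.4 in fresh and 0.424 and 0.553 in stimulated nTregs, WT first. For Hspa1b the nearest were Rgs2 (0.283), Junb (0.395) and Cd7 (0.401). The nearest were Plppr3 for Dnajb1 (0.0655), Psph for Hspd1 (0.0432), Aaas for Hspe1 (0.0517) and Mrpl3 for Hspa8 (0.0245). This measure also depends on a gene's own range, so the distances do not rank likeness between the 10 genes. The highest FPKM was 1.30-fold the lowest for Hspa8 and 73.5-fold for Hspa1b.

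Around these 10 genes, 9 lists of chaperone and heat shock genes were followed, with the regulators first. Their counts in stimulated against fresh nTregs stand beside 22.5% higher and 27.3% lower over all genes tested, or 59.1% and 8.99% at an equal FPKM sum. That sum includes short RNAs unless stated, and the all-gene shares without them are given above. With a library left out, the all-gene shares are not given. Fewer calls there cannot be read as particular to a list. Hsf1, the main heat shock factor, was 22.3 and 24.5 FPKM in naive cells, 17.4 and 17.5 in fresh and 15.7 and 15.0 in stimulated nTregs. It fell by 0.40 from naive to fresh (SE 0.09, adjusted p 0.0224), a call lost without any 1 of the naive and fresh libraries (adjusted p 0.0618 to 0.181) and at an equal FPKM sum (0.223), and the further -0.18 with stimulation did not pass (adjusted p 0.163). Of the 4 regulators tested, 0 passed in stimulated against fresh nTregs, although at an equal FPKM sum all 4 were higher (0 with short RNAs left out of it).

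Among the other HSP70 and HSP110 genes, 3 of 6 tested were higher and 1 lower in stimulated nTregs (4 and 1 at an equal FPKM sum). Hspa9, the mitochondrial HSP70, went from 75.8 and 72.2 to 144.7 and 140.4 FPKM, a rise of 0.94 (SE 0.07, adjusted p 0.000313), as Hspd1 and Hspe1 did. Hspa4, an HSP110 relative, rose by 0.55 (adjusted p 0.00182). Hspa2 fell by 1.58 (adjusted p 0.00234) from 4.01 and 6.19 to 1.12 and 0.913 FPKM. Of 18 other J-domain genes 5 were higher and 5 lower, near the all-gene shares, or 13 and 1 at an equal FPKM sum (7 and 2 with short RNAs left out of it). Fewer of these genes were called without the WT or the cKO fresh library. Dnajb4, a close relative of Dnajb1, fell by 2.05 (adjusted p 0.000171) from 36.0 and 36.6 to 9.13 and 7.05 FPKM. Dnajb5 (0.95, adjusted p 0.00429) and Dnajc2, a ribosome-bound co-chaperone (0.94, adjusted p 0.000485), were higher.

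The HSP90 co-chaperones were mostly higher, with 10 of 16 called higher and 1 lower (median 0.35). At an equal FPKM sum 15 were higher and 0 lower, and fewer were called without the WT or the cKO fresh library. Stip1, which links HSP70 to HSP90, went from 52.3 and 41.7 to 83.8 and 84.9 FPKM (0.84, SE 0.10, adjusted p 0.00137), and the cyclophilin Ppid differed by 0.85 (adjusted p 0.000912). Fkbp5, an immunophilin, was the 1 that fell (-0.65, adjusted p 0.0159), a call lost without the WT fresh (0.0924) or cKO fresh library (0.0665) and at an equal FPKM sum (0.495). The TRiC chaperonin, which folds actin and tubulin, had 6 of 8 subunits higher and 0 lower (median 0.32), with Cct6a at 0.90 (adjusted p 0.000412) and Tcp1 at 0.63 (adjusted p 0.00215), and at an equal FPKM sum all 8 were higher. Fewer TRiC subunits passed without the WT or the cKO fresh library. Prefoldin, which delivers clients to TRiC, had 2 of 6 higher and 1 lower (5 and 0 at an equal FPKM sum). The lower call was lost without the WT or the cKO fresh library.

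Of the BAG and other HSP70 cofactor genes, 3 of 8 were higher and 2 lower in stimulated nTregs (5 and 1 at an equal FPKM sum). Fewer of them were called without the WT fresh library. Bag3, itself a heat shock gene, fell by 1.10 (SE 0.16, adjusted p 0.00244) from 6.65 and 5.67 to 2.54 and 2.14 FPKM. Bag2 differed by 1.05 (adjusted p 0.0167), from 0.506 and 1.07 FPKM in fresh to 2.69 and 2.65 in stimulated nTregs, a call lost without the WT fresh (0.124) or cKO stimulated library (0.0508). Only 3 of the 10 small heat shock protein genes were expressed enough to test, and 0 of 3 passed, although 1 was called lower without the WT fresh or WT stimulated library. The mitochondrial list, which also holds Hspa9, had 3 of 14 higher and 2 lower with stimulation (11 and 0 at an equal FPKM sum). The list had fewer calls without the WT fresh, cKO fresh or cKO stimulated library, and more without the WT stimulated library. It had 0 higher and 7 lower in fresh nTregs against naive cells, where 16.5% and 14.7% of all genes were, with Clpb at -0.58 (adjusted p 0.0159) and Grpel1 at -0.51 (adjusted p 0.0138). At an equal FPKM sum 0 of the 14 were called lower. Most or all of these calls were also lost without any 1 of the naive and fresh libraries. No gene of the 9 lists was called between the genotypes.

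**Figure D4:**
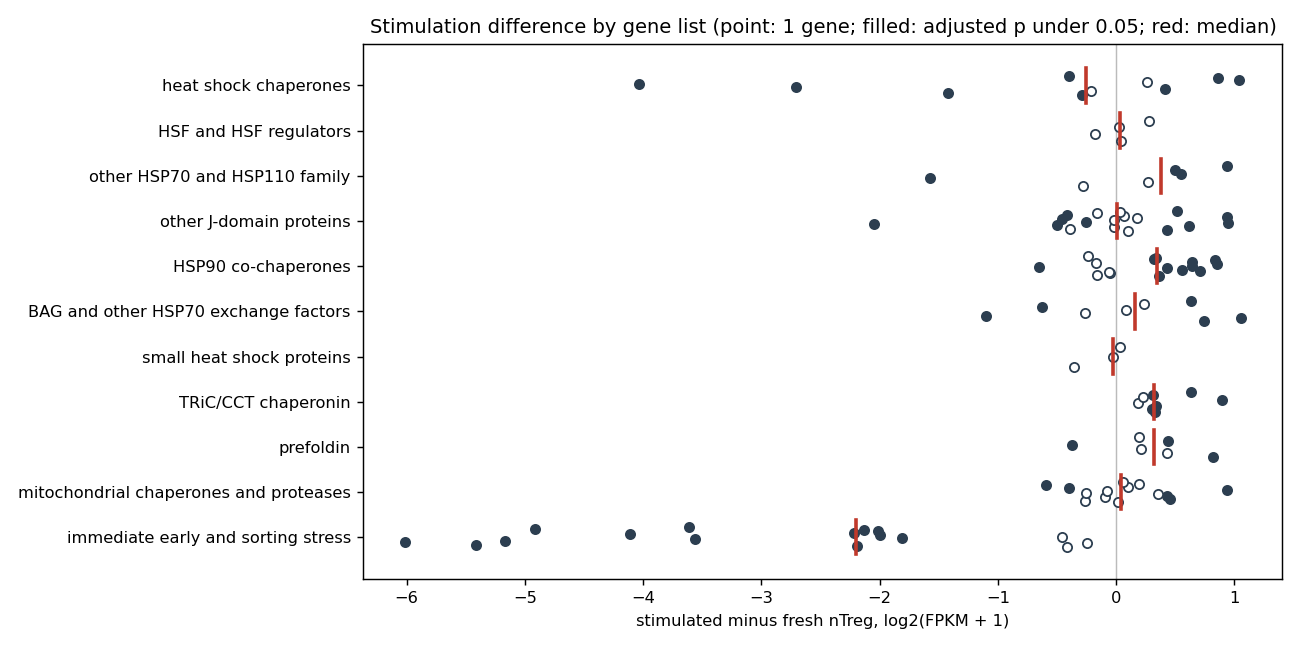
Difference of stimulated and fresh nTregs in log2(FPKM + 1) (x axis) for each tested gene of the chaperone lists and of the immediate early list (rows), with calls as filled points and the list median as a red line. The HSP90 co-chaperone (0.35) and TRiC (0.32) medians lie to the right of 0 and the immediate early median (-2.20) far to the left, at the side of Hspa1a and Hspa1b.

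The immediate early and sorting stress genes were mostly lower in stimulated nTregs, as Hspa1a, Hspa1b and Dnajb1 were. Of the 16 tested, 13 were lower and 0 higher in stimulated against fresh nTregs (median -2.20), against 27.3% lower and 22.5% higher over all genes. The counts were equal at an equal FPKM sum. Fos fell by 6.01 (SE 0.13, adjusted p 7.75e-06) from 351 and 401 FPKM to 4.88 and 4.79. Dusp1, a phosphatase of MAP kinases, went from 366 and 461 to 7.49 and 9.94 FPKM. In fresh nTregs against naive cells 10 of 16 were higher and 0 lower, where Hspa1a and Hspa1b did not pass and Dnajb1 was lower. The part of sorting stress in the chaperone levels of the fresh libraries was not tested.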

How the data were processed

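The authors deposited FPKM values per RefSeq transcript for 6 libraries, scaled with Cuffnorm per the file headers. Per the submitters' processing notes FastQC, TopHat, Cuffdiff and Cuffnorm were used with mm10, with no versions. Per the labels' protocols, library preparation was stranded, used 322 ng of RNA depleted of ribosomal RNA and ran 12 PCR cycles. Columns named YKP were read as YAP cKO, since the other column of each population is named WT, and all genotype directions rest on this. Transcripts listed more than once (165) held identical values and were counted once, and FPKM was summed per gene. limma 3.58.1 (R 4.3.3) was fitted to log2(FPKM + 1) over the 11224 genes that reached 1 FPKM in 2 or more libraries, with an intensity trend (2 residual and 4.02 prior degrees of freedom), and was tested on simulated data. p-values measure spread between libraries, which may be technical. FPKM carries no counts, and depth was estimated from low values, of which 73.7% to 81.5% lay within 0.15 of a whole number of fragments. Alternatives were another pseudocount, filter, scaling or trend, the summed copies, and leaving out each library. The 10 genes and the lists were chosen with earlier results of these data known. Named were all 10 genes, the most changed called genes of each list (up to 4), and the 3 nearest patterns. Hsf1 is named also where it had no call.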

Additional observations from a re-analysis of the deposited data

How the results depend on the processing

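Over 15 settings besides the one reported, Hspa1a, Hspa1b and Dnajb1 stayed lower and Hspd1 and Hspe1 higher, with calls, in stimulated against fresh nTregs and against naive cells (14 settings apply to the copies taken singly). Scaling to an equal FPKM sum gave 6 members higher and 3 lower in both stimulated comparisons, and reversed Hsph1 (0.16 against fresh, 0.11 against naive), Dnaja1 (0.28 and 0.35) and Hsp90aa1 (0.36 and 0.49). Without short features the equal sum gave 3 lower against fresh and left the signs of Hsph1 and Dnaja1 as reported, and Hsp90aa1 was 0.11 higher than naive. Fresh nTregs had 0 members lower than naive cells with no filter, at an equal sum with or without short features, and with no intensity trend. Leaving out 1 library gave 0 to 4 lower and 0 to 1 higher in that comparison, 3 to 6 lower in stimulated against fresh nTregs, and 0 to 1 higher and 0 to 1 lower between genotypes. Hspa1b in fresh nTregs against naive cells ranged from -0.029, a reversal without the cKO fresh library, to 0.54. With a pseudocount of 0.1 or 0.5, 1 member was at least 2-fold higher in cKO naive cells. With a pseudocount of 0.1, or the copies summed, 0 members had a 2-fold lower response in cKO. The 2-unit heat shock element was in 15.1% of promoter windows, against 0.603% for 3 units. The cause was not tested in these cases, except that leaving out a library removes samples and leaves fewer degrees of freedom. The reported model, with its population and genotype terms, already compares genotypes within populations and populations within genotypes. The labels carry no replicate numbers, so no further pairing was possible. Depth limits Hspa1a and Hspa1b in stimulated nTregs, which stand on 4.02 to 16.1 fragments.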
